A study of Saccharomyces cerevisiae with 8 samples.

Results

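The 10 genes described here encode the aminoacyl-tRNA synthetases of yeast mitochondria that were chosen by name: MSD1, MSE1, MSF1, MSK1, MSM1, MSR1, MST1, MSW1, MSY1 and ISM1, 10 of the 7105 genes in the deposited table. An aminoacyl-tRNA synthetase joins an amino acid to its tRNA, and these enzymes are made from nuclear genes in the cytosol, imported, and used on the tRNAs that mitochondrial DNA (mtDNA) itself encodes. The charged tRNAs serve a separate ribosome in the matrix that makes a handful of mtDNA-encoded proteins, most of them subunits of the respiratory chain and ATP synthase. In cells that have lost mtDNA the tRNAs, the templates and the ribosomal RNAs of that system are absent, while the nuclear genes for the enzymes remain. Many nuclear mRNAs for mitochondrial proteins are bound in yeast by Puf3p, an RNA-binding protein that acts on their decay, location and translation.

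RNA was sequenced from Saccharomyces cerevisiae BY4743, a diploid of the S288C background that is MATa/α his3Δ1/his3Δ1 leu2Δ0/leu2Δ0 met15Δ0/MET15 LYS2/lys2Δ0 ura3Δ0/ura3Δ0, grown in medium without uracil to select a URA3 plasmid. The ρ+ vector group kept its mtDNA and carried the empty high-copy vector pRS426, and the other 3 groups were ρ0 cells, made by 24 h in 25 µg/ml ethidium bromide (EtBr), with pRS426, with a high-copy TIP41 plasmid or with a high-copy PDE2 plasmid. Tip41p binds Tap42p in signalling by the TORC1 kinase, and Pde2p is a phosphodiesterase that breaks down cAMP. Each of the 4 groups had 2 replicates, numbered 0 and 1 and made by different experimenters, so p-values set differences against the spread between such cultures. That spread was estimated partly from all genes together and, in the fit reported, includes any difference between the experimenters. The ρ+ cells received no EtBr, and the loss of mtDNA and the presence of the drug therefore cannot be told apart.

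The libraries held 1389579 to 4884282 fragments in genes, the fewest in ρ+ vector replicate 1, and each of the 10 genes had 39 to 370 fragments in every library and passed the filter on low counts. The labels held: the 55 mtDNA-encoded genes had 9 and 6 fragments in the ρ+ libraries and 0 in all ρ0 libraries, all made from poly(A)-selected RNA. In CPM, fragments scaled to a common library size with the scaling factors of the fit, TIP41 was at 759 and 600 with its plasmid against 51.5 and 60.9 in ρ0 vector cells, and PDE2 at 581 and 639 with its plasmid against 184 and 153. The plasmid marker URA3 also differed, at 16950 and 15617 CPM in ρ0 vector cells. It was at 5658 and 7211 CPM with TIP41 and at 1915 and 2700 CPM with PDE2. None of the 10 genes overlapped another gene of the deposited table, and all of their estimated counts were whole (tolerance 0.001).

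A Puf3p recognition sequence, searched as TGTANATA on the coding strand of the 200 bases after the stop codon, was present after all 10 genes. The letters occurred after 816 of the 5487 nuclear coding genes tested (14.9%), after 2 of 16 genes for cytosolic synthetases (12.5%) and after 72 of 73 genes for mitochondrial ribosomal proteins (98.6%). The sites are printed 5′ to 3′ from the R64 reference with 8 bases on each side and the matching letters in capitals, because they are a feature that the choice of genes did not use and that all 10 share.
MSD1: gtttttctTGTAAATAttatacct
MSE1: tagggtcaTGTAAATAcgtcatat
MSF1, nearer site: accgcagcTGTATATAtcttgtaa
MSF1, farther site: atatatctTGTAAATActttgtca
MSK1, nearer site: aatgctttTGTAAATAaatcagac
MSK1, farther site: acatatacTGTAAATAattagaat
MSM1: tactgcacTGTAAATAttaactta
MSR1: tataaacaTGTAAATAgaagaaag
MST1: acttgcccTGTAAATAaaaggata
MSW1: aaacgcaaTGTAAATAataataca
MSY1: cactgactTGTAAATAagattata
ISM1: acctttccTGTATATAaagaatgc

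MSK1 and MSF1 each had 2 matches and the other 8 genes 1 each. Most matches read TGTAAATA, and TGTATATA was found only at ISM1 and at the nearer MSF1 site. The printed window of ISM1 lies at chrXVI:475960-475983 on the minus strand, with the match starting 18 bases after the stop codon, the closest of the 10 genes. The farthest match was that of MSY1, 78 bases after the stop codon, in the window chrXVI:366500-366523 on the plus strand. The 2 matches after MSK1 began 26 and 48 bases after the stop codon, in the windows chrXIV:490134-490157 and chrXIV:490156-490179. A match is a string of letters and not a measured binding site.

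**Figure D1:**
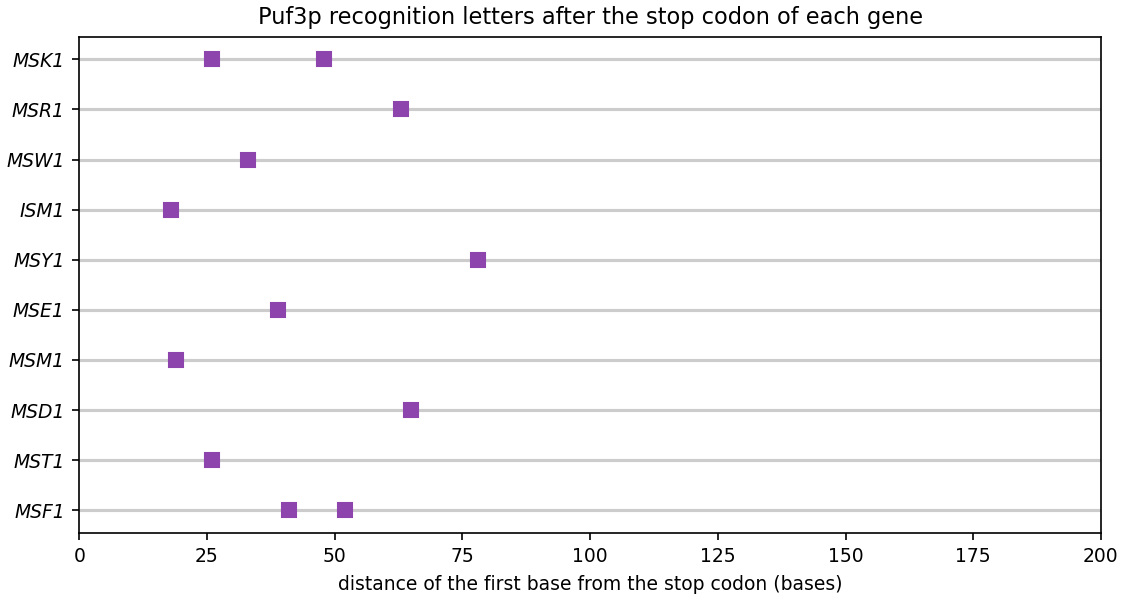
Position of each match to the Puf3p recognition letters (square) along the 200 bases after the stop codon (grey line), in bases, for the 10 genes. All matches begin within 18 to 78 bases of the stop codon, and MSK1 and MSF1 have 2 each.

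The same search upstream gave no such shared feature. In the 250 bases before the start codon, on both strands, CCAAT, the core of the Hap2/3/4/5 element of respiratory genes, was found at MSF1, MSM1 and MSY1, 3 of 10 genes against 35.8% of the nuclear coding genes tested. GTCAC, the core of the Rtg1p/Rtg3p site of the retrograde response to mitochondrial damage, was found at 0 of 10 genes against 21.7%. TGACTCA, the site of the amino acid starvation factor Gcn4p, and TCCGNGGA, the site of the drug resistance factors Pdr1p and Pdr3p, were likewise found at 0 of 10 genes, against 2.22% and 0.984%.

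In the R64 coordinates of the deposited table, which equal those of the RefSeq annotation for all 10, the genes are spread over 7 chromosomes. MSK1, for lysine, covers chrXIV:488386-490116 and MSR1, for arginine, chrVIII:284839-286770. MSW1, for tryptophan, the shortest of the 10 at 1140 bases, covers chrIV:1004004-1005143. ISM1, for isoleucine, the longest at 3009 bases, covers chrXVI:475993-479001, and MSY1 for tyrosine, MSD1 for aspartate and MSF1 for phenylalanine are on the same chromosome, at chrXVI:364952-366430, chrXVI:355700-357676 and chrXVI:657529-658938. MSE1 for glutamate covers chrXV:263475-265085, MSM1 for methionine chrVII:840824-842551 and MST1 for threonine chrXI:77258-78646.

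Levels were ordered by FPKM, the authors' fragments scaled by transcript length and library size, since only a value per length can be compared between genes. MSK1 was the highest of the 10 in every group, at 42.6 ± 3.55 FPKM (SD, n = 2) in ρ+ vector cells, 70.5 ± 13.9 in ρ0 vector cells, 67.6 ± 8.44 with TIP41 and 61.6 ± 0.158 with PDE2. In each group its lower library was above the higher library of the next gene, MSW1. MSW1 followed at 32.5 ± 0.612 FPKM (SD, n = 2) in ρ+ vector cells and 48.6 ± 2.90 in ρ0 vector cells.

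The lower part of the order was less distinct. In ρ+ vector cells the libraries of MSW1, MSM1 (29.8 ± 4.04 FPKM) and MSD1 (29.2 ± 1.102) overlapped each neighbour to neighbour, as did those of MST1 (26.5 ± 1.06), MSR1 (22.1 ± 5.54), MSY1 (21.6 ± 2.57) and MSF1 (20.5 ± 0.750), each SD over 2 libraries. The lowest, MSE1 at 19.0 ± 1.24 and ISM1 at 18.6 ± 0.664 FPKM, also overlapped. MSF1 was lowest in ρ0 vector cells, at 20.7 ± 1.37 FPKM, and in ρ0 PDE2 cells, at 16.8 ± 1.88, and MSE1 was lowest in ρ0 TIP41 cells, at 20.2 ± 0.0846 (SD, n = 2).

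Loss of mtDNA, the comparison of ρ0 vector with ρ+ vector cells, raised 3 of the 10 transcripts past an adjusted p of 0.05 (edgeR's quasi-likelihood test, Benjamini-Hochberg over 5832 genes), those of MSK1, MSR1 and MSW1, and lowered 0. Over all genes tested 13.9% passed, 7.49% higher and 6.38% lower. The log2 fold change was above 0 for 10 of 10 genes, against 51% of all genes, with a median of 0.41 against 0.01. In 8 of the 10 both ρ0 vector libraries lay above both ρ+ vector libraries, which held for 28.7% of all genes, and 2, MST1 and MSF1, overlapped. Summed over the 10 genes, the level was 417 and 432 CPM in the ρ+ vector libraries and 541 and 603 CPM in the ρ0 vector libraries.

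**Figure D2:**
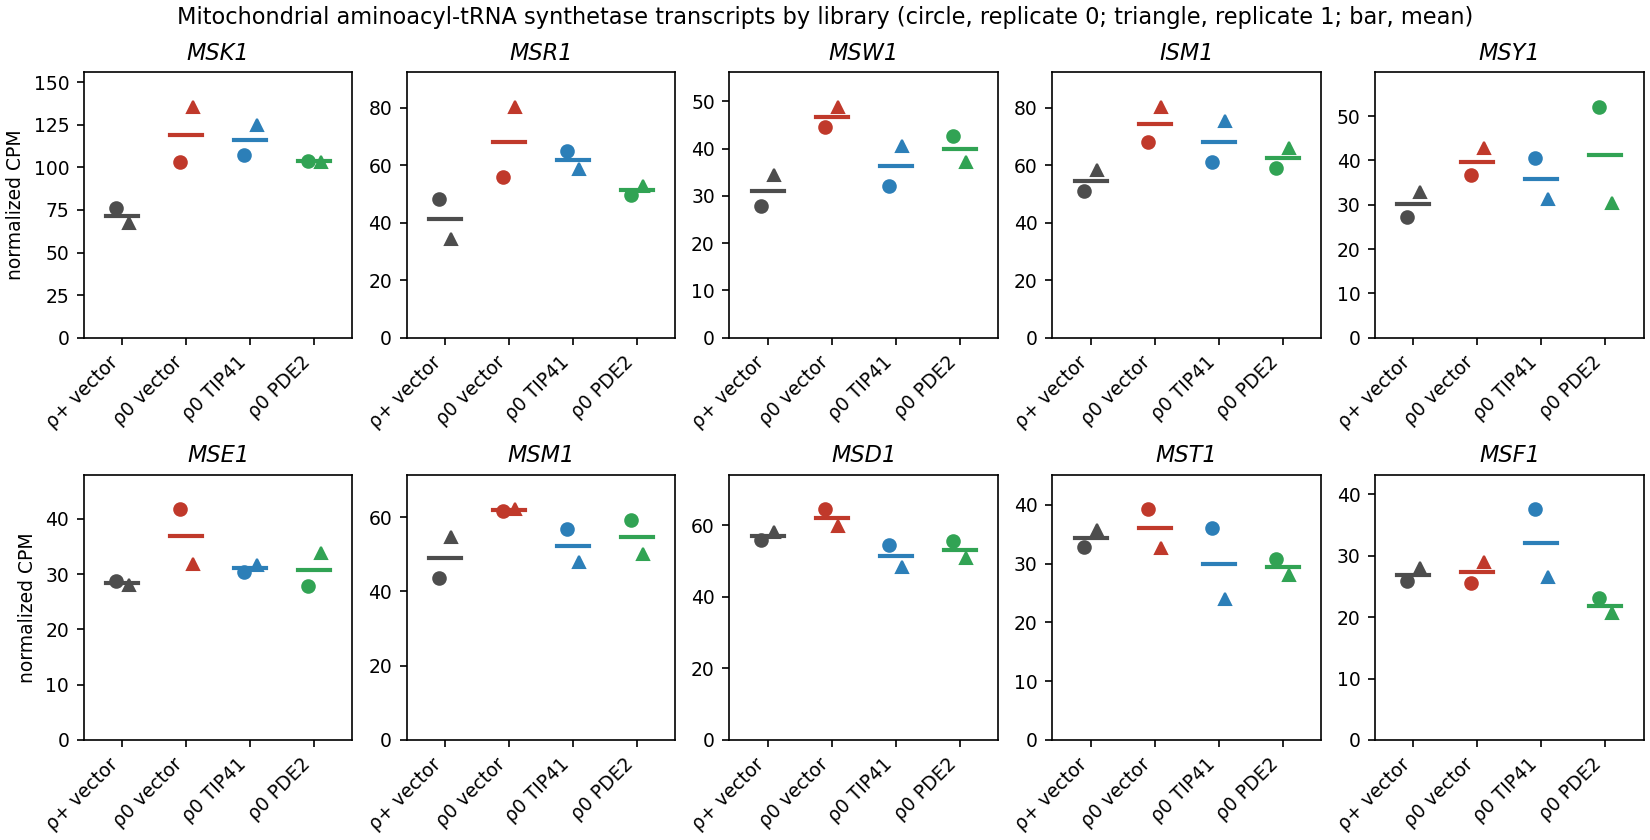
Normalized CPM (vertical axes, each from 0) of the 10 genes in each of the 8 libraries, ordered by log2 fold change with loss of mtDNA; circles are replicate 0, triangles replicate 1 and bars the mean. For MSK1 all 6 ρ0 libraries, at 103 to 136 CPM, lie above the ρ+ libraries at 67.3 and 75.9 CPM.

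MSK1, the lysyl-tRNA synthetase, was at 75.9 and 67.3 CPM in ρ+ vector replicates 0 and 1, and at 103 and 136 CPM in ρ0 vector. The groups did not overlap, and replicate 1 was the higher of the ρ0 libraries and the lower of the ρ+ libraries. Its log2 fold change was 0.72 (adjusted p = 0.00453, SE 0.15), a 1.64-fold higher level with a 95% interval of 1.32 to 2.05.

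MSR1, the arginyl-tRNA synthetase, was at 48.4 and 34.4 CPM in ρ+ vector and at 55.8 and 80.3 CPM in ρ0 vector cells. Replicate 1 again moved more than replicate 0, and the higher ρ+ library was close to the lower ρ0 library. The log2 fold change was 0.65 (adjusted p = 0.0392, SE 0.20). MSW1, the tryptophanyl-tRNA synthetase, was at 27.9 and 34.4 CPM in ρ+ vector and at 44.7 and 48.8 CPM in ρ0 vector cells. Here the nearest libraries of the groups were further apart than the replicates of either group, with a log2 fold change of 0.63 (adjusted p = 0.0383, SE 0.19).

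These 3 calls rest on few libraries. When ρ+ vector replicate 0 was left out 0 of the 10 genes passed among 258 genes called in all, instead of 809, and MSK1 was at 0.83 (adjusted p = 0.0534). Leaving out ρ+ vector replicate 1 also gave 0 among 434 genes, with MSK1 at 0.65 (adjusted p = 0.0568), and leaving out ρ0 vector replicate 1 gave 0 among 465 genes, with MSK1 at 0.51 (adjusted p = 0.0624). Without ρ0 vector replicate 0 there were 4 calls among 947 genes. MSR1 moved most, to a log2 fold change of 0.98 without ρ+ vector replicate 0 and 0.37 without ρ0 vector replicate 1, and that of MSW1 stayed between 0.44 and 0.74 in these fits. MSR1 also missed the threshold when any 1 of the 4 TIP41 and PDE2 libraries was left out, at adjusted p of 0.0517 to 0.0559, DESeq2 called MSK1 alone among 522 genes in all, and limma on log2(FPKM + 1) called 0 of the 10 among 353 genes (adjusted p = 0.0628 for MSK1).

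ISM1, the isoleucyl-tRNA synthetase, was at 50.9 and 58.2 CPM in ρ+ vector and at 68.1 and 80.3 CPM in ρ0 vector cells, in both groups higher in replicate 1. The log2 fold change of 0.46 (SE 0.16) did not pass, at an adjusted p of 0.0687, and passed with the replicate number as a block, at an adjusted p of 0.0339. With the block 4 of 10 genes were higher, beside 596 of all 5832 genes, and 19.9% of all genes passed in either direction. MSM1, the methionyl-tRNA synthetase, was at 43.5 and 54.7 CPM in ρ+ vector and at 61.6 and 62.1 CPM in ρ0 vector cells. Its log2 fold change of 0.37 (SE 0.17) had an adjusted p of 0.154, and the groups did not overlap.

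MSY1, the tyrosyl-tRNA synthetase, had 27.3 and 33.0 CPM in ρ+ vector and 36.7 and 42.8 CPM in ρ0 vector cells, a log2 fold change of 0.44 (adjusted p = 0.257, SE 0.24). MSE1, the glutamyl-tRNA synthetase, had 28.7 and 28.05 CPM in ρ+ vector and 41.8 and 31.9 CPM in ρ0 vector cells, a log2 fold change of 0.38 (adjusted p = 0.217, SE 0.19). For both genes the libraries of the groups were apart, by a margin smaller than the gap between the ρ0 replicates.

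The remaining 3 genes had the smallest values of the 10. MSD1, the aspartyl-tRNA synthetase, had 55.8 and 58.2 CPM in ρ+ vector and 64.5 and 59.7 CPM in ρ0 vector cells, with a log2 fold change of 0.13 (95% interval -0.18 to 0.44). MST1, the threonyl-tRNA synthetase, had 32.8 and 35.8 CPM in ρ+ vector and 39.3 and 32.7 CPM in ρ0 vector cells, with a log2 fold change of 0.09 (95% interval -0.35 to 0.53). MSF1, the phenylalanyl-tRNA synthetase, had 25.8 and 28.05 CPM in ρ+ vector and 25.6 and 29.1 CPM in ρ0 vector cells, with a log2 fold change of 0.03 (95% interval -0.42 to 0.49). None of these 3 intervals reaches 0.63, the value of MSW1, but the 95% interval of MSW1, 0.23 to 1.02, overlaps all 3. The difference between genes was not tested.

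Each of the 10 has a cytosolic counterpart for the same amino acid, encoded separately, which charges tRNAs for the cytosolic ribosome. For phenylalanine the cytosolic enzyme has subunits from the genes FRS1 and FRS2. FRS2 alone was used as the counterpart of MSF1, also in the sums below. A share of the GUS1 product is known to be imported into mitochondria as well. In ρ+ vector cells the counterpart was 9.72 to 21.3 times higher in FPKM, the ratio being smallest for MSM1 and MES1 and largest for MSY1 and TYS1. With loss of mtDNA the mitochondrial enzyme's log2 fold change was above its counterpart's in 9 of 10 pairs, by a median of 0.61. In 8 of 10 pairs the ratio of enzyme to counterpart was higher in both ρ0 vector libraries than in both ρ+ vector libraries. The same counts were not made over other pairs of genes, here or with PDE2 and TIP41, so their background share is not known. MSW1 and WRS1 differed most, by 0.86, and MSD1 and DPS1, at 0.13 and 0.14, were the exception. Summed FPKM of the 10 genes came to 6.01% and 7.10% of that of their counterparts in ρ+ vector cells, 9.08% and 10.6% in ρ0 vector cells, 7.97% and 7.39% with TIP41, and 7.68% and 6.38% with PDE2. The ρ0 vector libraries were the highest of the 8, and ρ0 PDE2 replicate 1 lay between the ρ+ libraries.

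**Figure D3:**
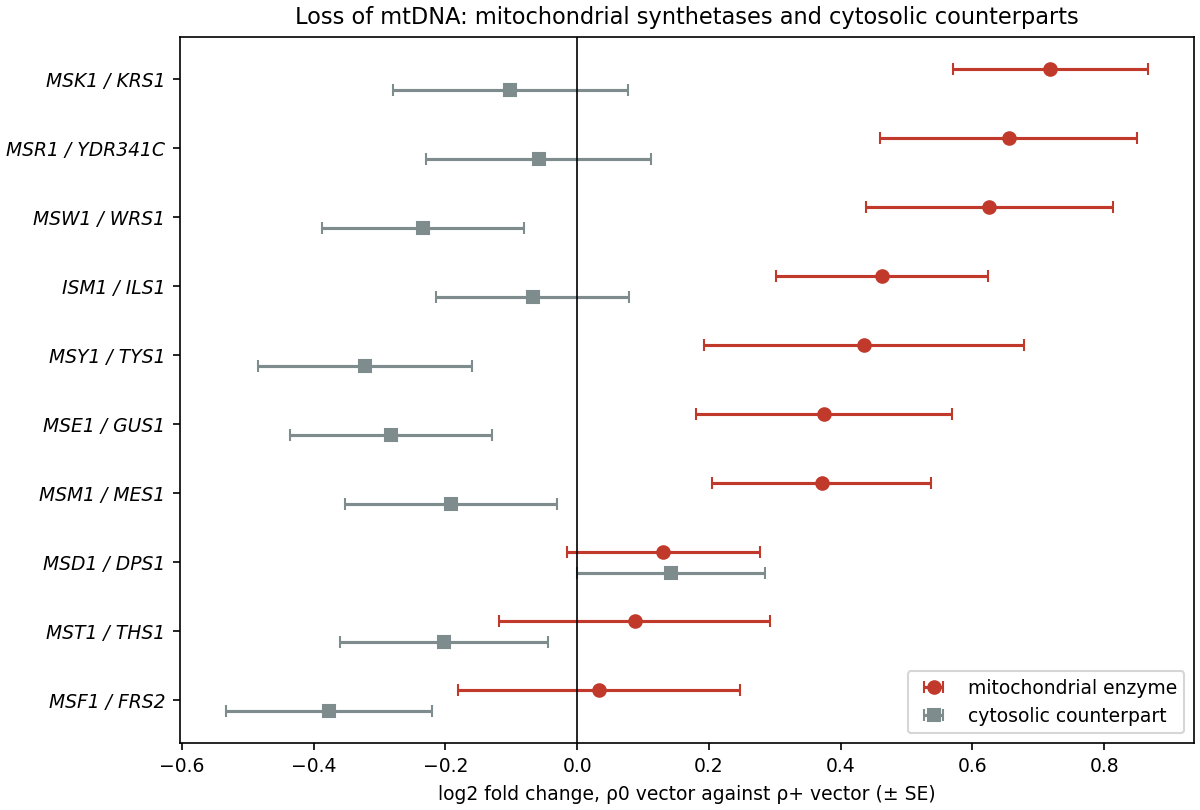
Log2 fold change of ρ0 vector against ρ+ vector cells (horizontal axis, ± SE from the fit, n = 2 a group) for each mitochondrial synthetase (circles) and its cytosolic counterpart (squares). The circle is to the right of the square in 9 of 10 pairs, and MSD1 and DPS1 are nearly level at 0.13 and 0.14.

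The counterparts belong to 16 genes for cytosolic synthetases, of which 0 were higher and 0 lower with loss of mtDNA and 1, DPS1, had a log2 fold change above 0 (median -0.20). At an unadjusted p under 0.05 there was 1 of the 16, FRS2, a subunit of the cytosolic phenylalanyl-tRNA synthetase and counterpart of MSF1, at -0.38 (adjusted p = 0.123, SE 0.16). Enzymes that serve both compartments from 1 gene, ALA1, GRS1, HTS1 and VAS1, had values of -0.24, -0.05, -0.18 and -0.11, and 0 of 4 passed.

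ALA1, GRS1, HTS1 and VAS1, which serve mitochondria as well, were thus all below 0. The other listed genes of mitochondrial tRNA charging had values above 0 with loss of mtDNA. The 4 further mitochondrial synthetases were at 0.29 for NAM2 (leucine), 0.13 for SLM5 (asparagine), 0.18 for DIA4 (serine) and 0.70 for AIM10 (proline), and 0 of 4 passed, although AIM10 went from an adjusted p of 0.0919 to 0.0104 with the replicate block. The GatFAB enzyme, which converts glutamyl-tRNA to glutaminyl-tRNA in mitochondria, had values of 0.31 for PET112, 0.57 for HER2 and 0.07 for GTF1. HER2 had an adjusted p of 0.0657, and of 0.0281 with the block.

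Further along the pathway, 15 of 73 mitochondrial ribosomal protein genes (20.5%) were higher and 0 lower, beside 7.49% higher and 6.38% lower of all genes. All 73 had log2 fold changes above 0, and their median was 0.34, beside the 0.41 of the 10 synthetases. The lowest p belonged to MRPL23, at 0.73 (adjusted p = 0.00339, SE 0.14). The 9 mitochondrial translation factors were divided, 6 above 0 and 3 below, with a median of 0.18 and a lowest value of -1.07. Of these 1 passed as higher, IFM1, the initiation factor, at 0.55 (adjusted p = 0.0448, SE 0.17), joined by GUF1 with the replicate block (adjusted p = 0.0442). The 8 genes for mitochondrial tRNA maturation were 4 above 0 and 4 below, with a median of 0.06. Of these 0 passed as higher, or 1 with the block (SLM3, adjusted p = 0.0489), and 1 passed as lower. The lower gene was RPM2, the protein subunit of mitochondrial RNase P, which trims the 5′ ends of the tRNAs that the synthetases charge and whose RNA subunit is encoded in mtDNA. RPM2 was at 76.4 ± 11.8 CPM in ρ+ vector and 40.2 ± 1.34 CPM in ρ0 vector cells (SD, n = 2), a log2 fold change of -0.95 (adjusted p = 9.42e-04, SE 0.16).

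Genes with a Puf3p match were also counted over the whole table. With loss of mtDNA 74 of the 816 were higher (9.07%) and 26 lower (3.19%), with a median log2 fold change of 0.10, against 7.19% higher and 7.30% lower of the 4671 without a match. Leaving out the 10 synthetases and the other gene groups named here, except the cytosolic synthetases, 715 genes with a match remained. Of these 55 were higher (7.69%) and 26 lower (3.64%), with a median of 0.04. PUF3 itself, looked up after the values of the 10 genes were seen, was at 0.31 (adjusted p = 0.205, SE 0.16).

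**Figure D4:**
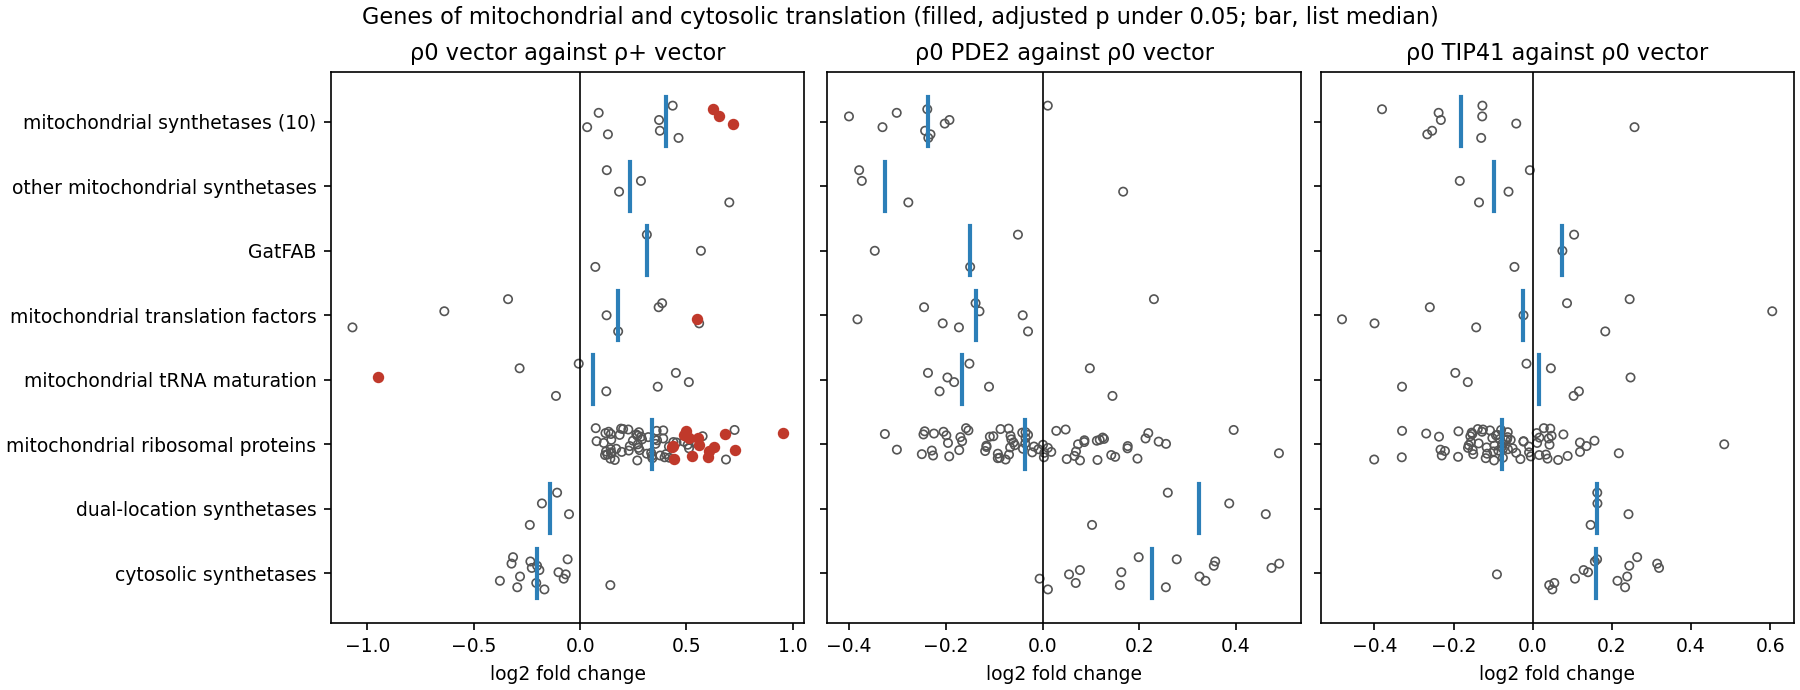
Log2 fold changes (horizontal axes) of the 10 synthetases and 7 other gene groups of translation in 3 comparisons; each point is a gene, filled points have an adjusted p under 0.05 and bars are group medians. The median of the 10 synthetases is 0.41 with loss of mtDNA, -0.24 with PDE2 and -0.18 with TIP41.

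PDE2 overexpression was compared with the vector in ρ0 cells. Of the 10 genes 0 passed in either direction, beside 2.3% of all genes, or 9.79% with the replicate block, under which 0 of the 10 passed as well. At an unadjusted p under 0.05 there were also 0 of 10, beside 19.7% of all genes. DESeq2 gave an adjusted p for MSK1 alone of the 10 (0.686) and none for the other 9, so it bears on MSK1 only. The log2 fold change was below 0 for 9 of 10 genes, against 53.1% of all genes, with a median of -0.24 against -0.02, and for 7 of the 10 both PDE2 libraries were below both vector libraries, against 26% of all genes.

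MSR1 had the lowest p in this comparison, with 49.7 and 52.7 CPM in ρ0 PDE2 against 55.8 and 80.3 CPM in ρ0 vector cells. The PDE2 libraries were below both vector libraries, but the vector replicates differed more from each other than the nearest libraries of the groups did. The log2 fold change was -0.40 (SE 0.20, 95% interval -0.82 to 0.02, adjusted p = 0.275). MSK1 was at 104 and 103 CPM with PDE2, just above the lower vector library and well below the other at 136 CPM, with a log2 fold change of -0.20 (SE 0.15). MSW1 was at 42.6 and 37.2 CPM with PDE2, a log2 fold change of -0.24 (SE 0.18), and ISM1 at 59.2 and 65.9 CPM, one of -0.24 (SE 0.16).

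MSY1 was the only gene of the 10 with a value above 0 with PDE2, at 0.01 (SE 0.24). Its PDE2 libraries stood at 52.1 and 30.4 CPM, the widest replicate gap on the log2 scale of any of the 10 genes (0.76), and enclosed both vector libraries. Of the 3 genes with the smallest values for loss of mtDNA, MSF1 was at 23.1 and 20.6 CPM with PDE2 (log2 fold change -0.33, SE 0.22), MST1 at 30.8 and 28.1 CPM (-0.30, SE 0.21) and MSD1 at 55.6 and 50.7 CPM (-0.23, SE 0.15), all below both vector libraries. MSM1 was at 59.2 and 50.03 CPM (-0.19, SE 0.17), and MSE1 at 27.8 and 33.8 CPM (-0.24, SE 0.19).

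The cytosolic synthetases had values of the other sign with PDE2, above 0 for 15 of 16 genes with a median of 0.23, and 0 of 16 passed, or 1 with the replicate block (TYS1, adjusted p = 0.0442). Each of the 10 mitochondrial enzymes had a log2 fold change below that of its counterpart, with a median difference of -0.52. MSR1 and YDR341C, for arginine, were furthest apart. The mitochondrial ribosomal proteins had a median of -0.04, with 43 of 73 below 0.

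TIP41 overexpression in ρ0 cells changed 0 of the 10 genes past the threshold, beside 0.412% of all genes, or 1.95% with the replicate block. At an unadjusted p under 0.05 there were 0 of 10, beside 10.7% of all genes, and DESeq2 called 0. The log2 fold change was below 0 for 9 of 10 genes, against 48.6% of all genes, with a median of -0.18 against 0.01, and in 4 of 10 both TIP41 libraries were below both vector libraries, against 19%. The PDE2 and TIP41 comparisons share the ρ0 vector libraries with each other and with the comparison for loss of mtDNA, where these libraries enter with the opposite sign, so the signs of the 3 comparisons are not independent.

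Set against the counterparts, 9 of the 10 were below, with a median difference of -0.33. MSW1 had the lowest p with TIP41, at 32.0 and 40.5 CPM against 44.7 and 48.8 CPM with the vector, a log2 fold change of -0.38 (SE 0.18, 95% interval -0.77 to 0.01, adjusted p = 0.488). MSD1, at 54.4 and 48.3 CPM, was below both vector libraries and also below both ρ+ libraries. MSK1, at 108 and 125 CPM, lay within the span of the vector libraries, with a log2 fold change of -0.04 (95% interval -0.35 to 0.26), and MSR1, at 65.0 and 58.7 CPM, did so too. MSE1 (30.4 and 31.7 CPM) and MSM1 (56.7 and 47.8 CPM) were below their vector libraries, and ISM1 (61.0 and 75.4 CPM), MSY1 (40.6 and 31.2 CPM) and MST1 (36.0 and 23.9 CPM) overlapped them.

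MSF1 differed in sign from the other 9 genes with TIP41, at 37.6 and 26.5 CPM against 25.6 and 29.1 CPM with the vector, a log2 fold change of 0.26 (adjusted p = 0.702, SE 0.21). Its value rests on TIP41 replicate 0, without which it was -0.04. MSF1 lies on the same chromosome as TIP41 itself, with 6 deposited genes between them, TIF5, PUF2, RPL43A, OPI11, THP3 and MCM16, which had log2 fold changes of -0.15 to 0.36 with the TIP41 plasmid, none past the threshold. On the other side of TIP41, IRC16 and ERV2 were higher, by 3.47 (adjusted p = 4.90e-06, SE 0.25) and 0.97 (adjusted p = 0.0247, SE 0.17) on the log2 scale. YPR039W, between IRC16 and TIP41, went from a mean of 0.36 to one of 20.3 CPM. The part of the plasmid in these values was not tested.

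When the overexpressed genes were compared with each other in ρ0 cells, 0 of the 10 passed, beside 0.394% of all genes. DESeq2 called 0 of the 7 genes to which it gave an adjusted p, MSF1 not among them. At an unadjusted p under 0.05, which 6.58% of all genes reached, there was 1 of 10, MSF1, lower with PDE2 than with TIP41 by a log2 value of -0.59 (SE 0.22, edgeR's adjusted p = 0.56), or -0.29 without TIP41 replicate 0. The other 9 genes had values of -0.27 (MSR1) to 0.14 (MSW1), 5 of them above 0 beside 49% of all genes, and the median over the 10 genes was -0.03.

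The plasmid-bearing ρ0 cells were also compared with ρ+ vector cells. With TIP41, MSK1 was higher, at 108 and 125 CPM against 75.9 and 67.3 CPM, a log2 fold change of 0.68 (adjusted p = 0.0138, SE 0.15), 1 of 10 genes beside 3.41% of all genes. This call was lost without ρ+ vector replicate 0 (adjusted p = 0.126), ρ+ vector replicate 1 (0.134) or TIP41 replicate 1 (0.154), and with DESeq2 (0.0594). MSR1 followed at 0.53 (adjusted p = 0.159, SE 0.20), and 8 of 10 genes had values above 0 beside 50.4% of all genes, with a median of 0.27.

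With PDE2, 0 of the 10 genes passed against ρ+ vector cells, beside 5.13% of all genes, and DESeq2 called 0. At an unadjusted p under 0.05 there was 1 of 10, beside 18.6%. MSK1, at 104 and 103 CPM, had a log2 fold change of 0.52 (adjusted p = 0.0627, SE 0.15), which passed with the replicate block at an adjusted p of 0.0311 (9.65% of all genes passed that fit) and without ρ0 vector replicate 0 (0.0224) or 1 (0.0274), libraries that enter this comparison only through the shared spread. Values were above 0 for 7 of 10 genes, against 51% of all genes, with a median of 0.20. For 4 of the 10 both PDE2 libraries were above both ρ+ libraries, for which the share of all genes is not given here. MSD1 (-0.10), MST1 (-0.21) and MSF1 (-0.30) were below 0 with both PDE2 libraries under both ρ+ libraries, as 25% of all genes were. The nearest libraries of MSD1 were almost level, at 55.6 CPM with PDE2 and 55.8 CPM in ρ+ cells. For 3 genes, MSK1, MSR1 and ISM1, all 6 ρ0 libraries lay above both ρ+ libraries, beside 13.4% of all genes.

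Over the 8 libraries the 10 genes varied together only in part. Of the 45 pairs of genes, 35 had a positive Pearson r of log2 CPM, with a median of 0.32, from -0.39 for MSK1 and MST1 to 0.89 for MSK1 and MSR1. The gene most like the mean of the other 9 was MSM1 (r = 0.83) and the least like was MSF1 (r = 0.18). These correlations describe 8 libraries that share their groups and experimenters, and no p is given. The same values were not computed for other sets of genes, so their background is not known. Of 5477 other protein-coding genes, DYN3, a dynein light intermediate chain (r = 0.98), HAP5, a subunit of the CCAAT-binding complex (0.98), RTC1 (0.97), GSC2, a glucan synthase subunit (0.95), and SKG3 (0.95) had profiles most like the mean of the 10, by Pearson r over the same 8 libraries.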

How the data were processed

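RNA-seq libraries from 8 yeast cultures, 2 in each of 4 groups taken from the labels, were analysed. The reads came from poly(A)-selected RNA, paired ends on a MiSeq, and no strand setting for counting is given in the sources used here. Alignment by the authors used TopHat2 2.0.14 (R64 build), and quantification used Cuffdiff 2.2.1.1 with its multi-read and bias corrections. The estimated counts deposited by the authors are unscaled fragments of each gene in each library. The deposited FPKM values are per length, after the authors' geometric scaling. Columns of the authors' own comparisons (fold changes, p and q values) were not used.

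Estimated counts, of which 12.3% of those above 0 were not whole (tolerance 0.001), were rounded and fitted in R 4.3.3 with edgeR 4.0.16: filterByExpr (5832 genes kept), TMM scaling, 1 robust quasi-likelihood fit of the 4 groups (residual degrees of freedom, 4), and Benjamini-Hochberg correction across all genes tested. The SE is the size of the log2 fold change over the square root of F. The 95% intervals use t quantiles with the residual degrees of freedom plus those that the fit adds from all genes. CPM are on TMM-scaled library sizes. Motifs were searched in the R64 RefSeq sequence, where the window after a stop codon may hold more than the untranslated region.

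The members and gene lists were chosen with earlier results of these data known. Named genes were the 10 members, their counterparts, all genes of the short lists, up to 4 genes of each longer list with the lowest p for loss of mtDNA, the genes between TIP41 and MSF1, and the 5 profiles most like the members' mean. PUF3 and the genes beyond TIP41 were added after values were seen.

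Same-numbered replicates were taken as paired. The experimenter differed between replicates, and deviations from group means correlated at 0.19 to 0.54 between same-numbered libraries in all 6 pairs of groups (5464 genes). The block enters only as an alternative, with 3 residual degrees of freedom. The other alternatives were RLE size factors, DESeq2 1.42.0, no filter, at least 50 fragments in every library of a group, only the 2 groups compared, limma 3.58.1 on log2(FPKM + 1) and log2(FPKM + 0.1), and leaving out each library. The fit was also run on simulated counts drawn without a difference between experimenters, and no statement here rests on that run.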

Additional observations from a re-analysis of the deposited data

How the results depend on the processing

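For loss of mtDNA, 3 of the 10 synthetase genes passed in the fit reported. With only the 2 groups compared edgeR called 2, MSK1 and MSW1, and MSR1 missed the threshold (adjusted p = 0.0707). DESeq2 called 1, limma called 0 at either pseudocount on FPKM (1 or 0.1), and leaving out 1 library gave 0 to 4, with 0 when either ρ+ library or replicate 1 of the ρ0 vector was absent. For ρ0 PDE2 against ρ+ the count went from 0 to 1 (MSK1) with only the 2 groups compared and with the replicate block, and from 0 to 1 over the left-out libraries. For ρ0 TIP41 against ρ+ it went from 1 to 0 with DESeq2, 0 with limma at either pseudocount, 2 with only the 2 groups compared, and 0 to 1 over the left-out libraries. With PDE2 or TIP41 against the ρ0 vector, and PDE2 against TIP41, it was 0 in each of the 16 alternatives, where DESeq2 gave no adjusted p to 9 of the 10 genes with PDE2 and to 3 for PDE2 against TIP41.

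The replicate block, which uses the pairing, moved the 10 genes called from 3 to 4 for loss of mtDNA and from 0 to 1 for ρ0 PDE2 against ρ+, and the genes called in the whole table from 809 to 1160 for loss of mtDNA, 134 to 571 for PDE2 and 24 to 114 for TIP41. Of the 10 genes it changed the calls of ISM1 (loss of mtDNA) and MSK1 (ρ0 PDE2 against ρ+) and no other. Among the other genes named it added AIM10, HER2, GUF1, SLM3 and HAP5 for loss of mtDNA, TYS1 and OPI11 for PDE2, OPI11 for ρ0 PDE2 against ρ+, HER2, GSC2 and MRPL23 for ρ0 TIP41 against ρ+, and ERV2 for PDE2 against TIP41. MSY1 with PDE2 turned from 0.01 to -0.0015 with the block and to -0.0062 with at least 50 fragments required.

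Of 160 values for loss of mtDNA (10 genes, 16 alternatives) 157 kept their sign, of 160 for PDE2 155 and of 160 for TIP41 154. The values that turned were never past the threshold. Over the left-out libraries, log2 fold changes for loss of mtDNA ran from 0.37 to 0.98 for MSR1, -0.059 to 0.12 for MSF1 and -0.054 to 0.21 for MST1. With PDE2 they ran from -0.39 to 0.0072 for MSK1 and -0.38 to 0.39 for MSY1. With TIP41 they ran from -0.040 to 0.45 for MSF1, -0.23 to 0.17 for MSK1, -0.37 to 0.15 for MSR1, -0.35 to 0.014 for MSY1 and -0.30 to 0.025 for ISM1. A left-out library leaves its group with 1 sample, which is assumed to vary like the others. The causes of these changes were not tested. At 39 to 370 fragments a gene and library, a log2 fold change had an SE of 0.15 to 0.24 for loss of mtDNA.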
